A study of Saccharomyces cerevisiae with 16 samples.

Results

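The transcript levels of Saccharomyces cerevisiae 330 s after a glucose pulse were compared with those of the same kind of culture before it. The comparison used 5 of the 16 arrays of the series, the 2 arrays titled 330 s (pulses 1 and 2) and the 3 arrays titled T=0 (pulses 1, 2 and 3). All cells were of strain CEN PK 113-7D, a laboratory yeast, and grew aerobically in a carbon-limited chemostat, a fermentor with steady inflow and outflow. The dilution rate was 0.05 per hour, the pH was held at 5 and the temperature at 30 °C. The feed held 27.1 g of glucose and 1.42 g of ethanol per litre. The steady-state cells had received no pulse, and at 330 s the cells had met a sudden rise of glucose, to a concentration near 1 g per litre (5.56 mM). Other arrays covered 30 to 300 s, and the 3 arrays at 300 s served here as the nearest time point. Cells were quenched in liquid nitrogen, and the labels give at least 2 independently grown cultures for every time point except 210 s.

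Yeast limited for glucose in a chemostat respires its sugar, keeps genes for poorer carbon sources partly active and holds stores of trehalose and glycogen. When glucose becomes plentiful, sensors at the cell surface, the Ras and cAMP pathway with protein kinase A, and the Snf1 kinase with the repressor Mig1 change transcription within minutes. Genes for ribosome assembly and for the synthesis of nucleotides and amino acids are known to be switched on, and genes for respiration, gluconeogenesis, reserve carbohydrates and stress protection to be switched off.

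Signals in the text are rescaled array intensities with a floor of 12, so that levels can be compared between arrays for 1 gene but not between genes. Before rescaling, the trimmed mean signal ran from 92.0 to 325.9 on the 5 arrays, and after it 10.2 to 13.1% of probe sets lay under the floor on the steady-state arrays and 14.7 to 15.1% at 330 s. The 330 s arrays differed from each other by a median absolute log2 value of 0.20, and the 3 pairs of steady-state arrays by 0.26 to 0.28. Both 330 s arrays and steady-state replicate 1 carry low array numbers (23 to 25), and the other 13 arrays carry higher ones. The 330 s arrays also share a day (of hybridization, or of scanning where the former was not given) with no other array. Their experiment files mention a fermentation sample of 150 hours and name no pulse, so the time point rests on the titles. The note of 300 s replicate 1 names benzoic acid, which its title does not. Genes of the MATa mating type had a summed signal of 4701 to 6741 at steady state and of 6472 to 6525 at 330 s, and 0 of their 7 members passed the test. The summed signal of 4 MATalpha genes was 368 to 385 against 419 to 514 with 1 member higher, and that of 11 sporulation genes 222 to 252 against 178 to 190.0 with 1 lower, and the part of such cells in the results was not tested.

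At 330 s, 2034 of 5410 genes tested (37.6%) differed from the steady state in limma at an adjusted p under 0.05. Of these, 720 were higher (13.3% of all genes tested) and 1314 were lower (24.3%). The change was at least 2-fold for 294 higher and 395 lower genes, and at least 4-fold for 40 and 55. For 2012 of the 2034 genes the 2 arrays at 330 s lay on one side of all 3 steady-state arrays, as they did for 2982 of all 5410 genes (55.1%). The median log2 value of all genes was -0.19, and list medians below are given relative to it. Centring the arrays on their medians instead gave 941 higher and 870 lower genes, with all 720 higher genes among them and 870 of the 1314 lower ones, and quantile normalization gave 930 and 955. With the array-number series as a block, which compares the 330 s arrays with steady-state replicate 1 alone, 490 genes were higher and 878 lower. Of these, 438 and 778 were shared with the main result. All 2034 genes kept their sign. For the 2012 genes on one side of all 3 steady-state arrays, replicate 1 among them, this was fixed in advance. Without 330 s replicate 1, 498 genes were higher and 840 lower. Each array reads RNA from a whole culture, so a smaller share of cells with a transcript and less of it per cell cannot be told apart.

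The largest rise was that of TPO2, which encodes a polyamine exporter of the plasma membrane. Its signals were 22.0, 36.5 and 43.8 at steady state and 1276 and 1339.9 at 330 s, a log2 fold change of 5.32 ± 0.24 (SE), limma adjusted p = 5.3e-10. Its probe set carries a suffix that the array's design gives to sets that are incomplete or may match more than 1 transcript. AQR1, a transporter of the same large family that excretes amino acids, read 12, 14.1 and 12 at steady state and 341 and 320.3 at 330 s. AQR1 thus stood at or just over the floor on every steady-state array, and its log2 value of 4.71 ± 0.19 (SE) (limma adjusted p = 1.4e-10) understates the change. Both genes stayed near their starting level up to 120 s in the plot of signals by time.

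**Figure D1:**
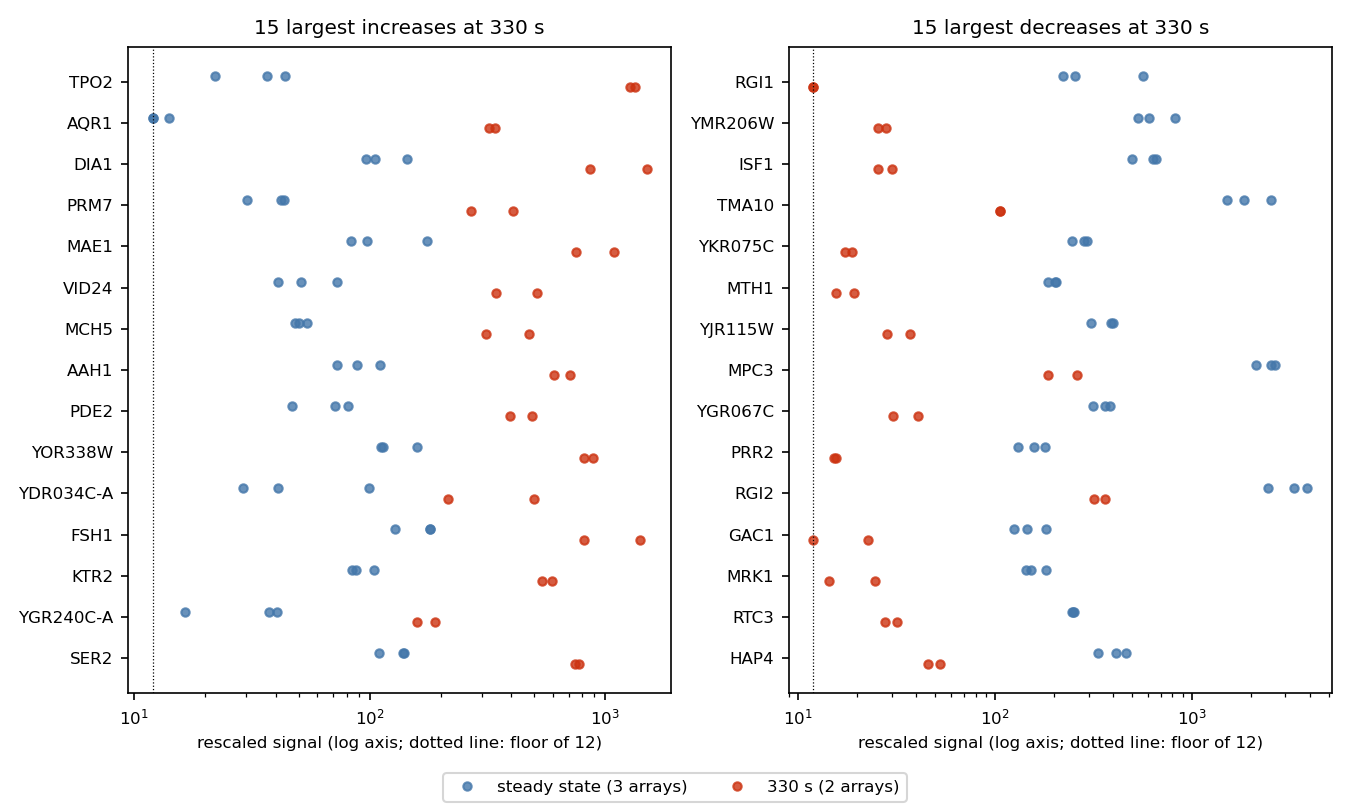
Rescaled signal (log axis) of the 15 genes with the largest rise (left) and the 15 with the largest fall (right) at 330 s among genes that passed the test with non-overlapping groups. Each blue point is 1 of the 3 steady-state arrays and each red point 1 of the 2 arrays at 330 s, and the dotted line is the floor of 12; TPO2 leads the risers and RGI1, at the floor on both 330 s arrays, the fallers.

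Genes of organic acid and purine metabolism were among the other large rises. MAE1, the mitochondrial malic enzyme that makes pyruvate from malate, read 83.5, 97.4 and 175 at steady state and 752 and 1091 at 330 s (log2 3.01 ± 0.30 (SE), limma adjusted p = 2.1e-06). AAH1, the adenine deaminase of purine salvage, read 72.9, 111 and 88.1 at steady state and 607 and 711 at 330 s (log2 2.88 ± 0.19 (SE), limma adjusted p = 3.5e-08). SER2, the phosphatase of the last step of serine synthesis, read 139.8, 139 and 109 at steady state and 744 and 770.4 at 330 s (log2 2.56 ± 0.16 (SE), limma adjusted p = 1.5e-08). For these 3 genes every 330 s array stood well over every steady-state array. That the groups did not overlap was fixed by the choice of the leading 15 risers. PDE2, the high-affinity phosphodiesterase that degrades cAMP, read 46.9, 80.7 and 71.3 at steady state and 489 and 394 at 330 s, a log2 change of 2.77 ± 0.23 (SE), limma adjusted p = 4.3e-07. VID24, the substrate receptor of the GID ubiquitin ligase that marks gluconeogenic enzymes for degradation, read 41.0, 72.4 and 51.1 at steady state and 345 and 516 at 330 s, a log2 change of 2.98 ± 0.29 (SE), limma adjusted p = 2.1e-06. The other risers among the leading 15 were the riboflavin transporter gene MCH5 (2.92), the mannosyltransferase gene KTR2 (2.63), the serine hydrolase gene FSH1 (2.74), the pheromone-regulated PRM7 (3.12), DIA1 (3.33), YOR338W (2.75), YGR240C-A (2.58) and YDR034C-A (2.74), all as log2 changes. DIA1 overlaps YMR316C-A on the other strand, so their signals may not be separate, and with the array series as a block YDR034C-A lost its call (log2 1.72, limma adjusted p = 0.056). The probe set of YDR034C-A may match other transcripts, its 3 further probe sets above the floor gave log2 changes of 0.78 to 1.34, and its value was 3.34 without 330 s replicate 1 and 2.13 without replicate 2.

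The 15 largest falls included 5 genes known from respiratory growth, RGI1, ISF1, MPC3, RGI2 and HAP4, and were led by RGI1. RGI1, a gene induced in respiring cells, read 566, 222 and 257 at steady state and 12 and 12 at 330 s. Both 330 s values of RGI1 lay at the floor, so its log2 change of -4.73 ± 0.34 (SE) (limma adjusted p = 6.8e-08) understates the fall. ISF1, which helps growth on carbon sources that need respiration, read 638, 497 and 663 at steady state and 25.6 and 30.0 at 330 s (log2 -4.42 ± 0.15 (SE), limma adjusted p = 2.6e-11). HAP4, the regulated activator subunit of the Hap2/3/4/5 complex that drives respiratory genes, read 467, 414 and 333 at steady state and 45.8 and 52.5 at 330 s (log2 -3.03 ± 0.16 (SE), limma adjusted p = 4.3e-09). MPC3, the subunit of the mitochondrial pyruvate carrier used in respiring cells, read 2519, 2118 and 2642 at steady state and 186 and 263 at 330 s (log2 -3.45 ± 0.20 (SE), limma adjusted p = 8.2e-09). The groups of these 4 genes did not overlap, which was fixed in advance, as the 15 falls were taken from genes with non-overlapping groups. For each of the 4 genes every 330 s signal was far under the lowest steady-state signal. RGI2, the paralogue of RGI1, fell by 3.21 on the log2 scale, and TMA10, a ribosome-associated stress gene, by 4.17. The other leading fallers, as log2 changes, were YMR206W (-4.59), YKR075C (-3.92), YJR115W (-3.48), YGR067C (-3.33), the kinase genes PRR2 (-3.33) and MRK1 (-3.08), and RTC3 (-3.07). The other probe set of MRK1 above the floor gave a log2 change of -0.81, and with the series block the value of RGI1 was -5.56.

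**Figure D2:**
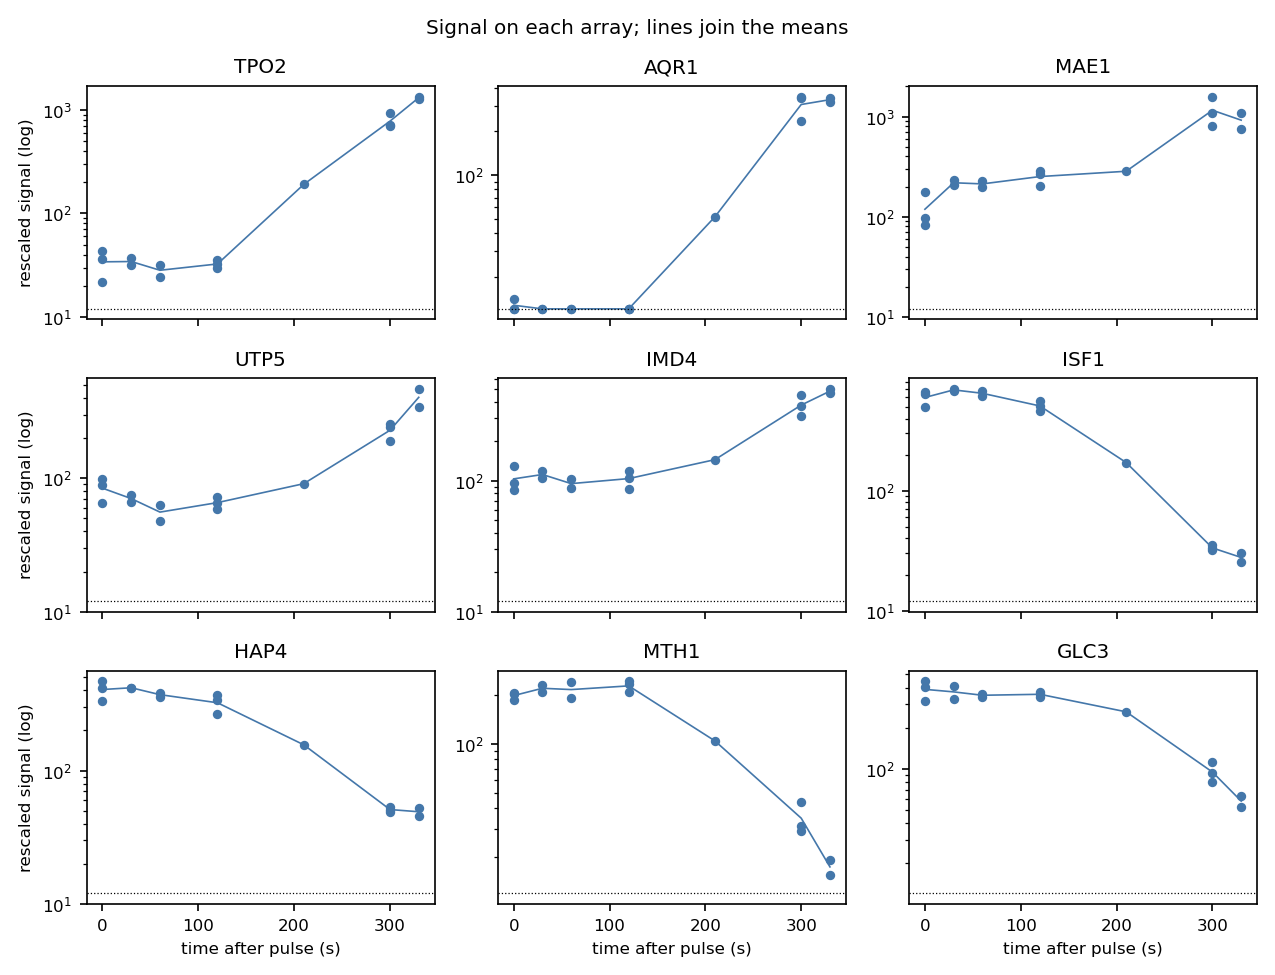
Rescaled signal (log axis) of 9 genes on every array against the time after the pulse in seconds, with lines through the means of each time; 0 s is the steady state. TPO2 and AQR1 rose and ISF1, HAP4 and MTH1 fell after 120 s, and the single 210 s array lay between the 120 s and 300 s means for each of the 9 genes.

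Among the 39 gene lists, ribosome assembly had the highest share of risers. Of 155 ribosome biogenesis genes tested, 125 rose and 0 fell, against 13.3% and 24.3% of all genes, and their median log2 value was 1.16 over that of all genes. On both 330 s arrays 134 members stood over all 3 steady-state arrays, against 1026 of the 5410 genes tested (19.0%). UTP5, a component of the small-subunit processome, read 98.7, 88.3 and 65.7 at steady state and 341 and 467 at 330 s, a log2 change of 2.26 ± 0.21 (SE), limma adjusted p = 1.3e-06. SSF1, needed for the maturation of the large subunit, read 85.3, 64.1 and 50.3 at steady state and 312 and 286 at 330 s (log2 2.20 ± 0.24 (SE), limma adjusted p = 6.3e-06). NOC4 and RSA4, which act in the export of the small and the assembly of the large subunit, rose by 2.12 and 2.09 on the log2 scale. With the series block 89 members rose and 0 fell. At 300 s, against the same steady-state arrays, 108 members were higher and 2 lower (12.1% and 18.3% of all genes), with a relative median of 0.79.

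RNA polymerases I and III transcribe ribosomal and transfer RNA genes. Of their 39 subunits and initiation factors 15 rose (38.5%) and 0 fell, against 13.3% and 24.3% of all genes. RRN11, a factor of RNA polymerase I initiation, lay at the floor of 12 on all 3 steady-state arrays and read 56.2 and 38.1 at 330 s (limma adjusted p = 6.3e-06). RPC37, RPA12 and RPC11, subunits of these polymerases, rose by 1.64, 1.60 and 1.29 on the log2 scale. Of 18 single-copy ribosomal protein genes 5 rose (27.8%, against 13.3% of all genes) and 0 fell. All 18 log2 values lay between 0.10 and 0.67. Their median was 0.56 over that of all genes, and 0.24 over it with quantile normalization. On both 330 s arrays 14 members stood over all 3 steady-state arrays, against 19.0% of all genes. RPL25 read 962, 904 and 944 at steady state and 1326 and 1235 at 330 s (log2 0.45 ± 0.12 (SE), limma adjusted p = 0.0064, 0.055 without 330 s replicate 1 and 0.06 with the series block). Ribosomal protein calls depended on single arrays and on the scale, with 1 riser if either 330 s array was left out, 3 and 9 if steady-state replicates 2 and 3 were, 8 with median centring, 2 with quantile normalization and 0 to 13 over all 17 alternatives. IFH1, the activator bound at ribosomal protein genes, read 39.8, 40.2 and 32.4 at steady state and 139 and 156 at 330 s (log2 1.98 ± 0.22 (SE), limma adjusted p = 6.5e-06). CRF1, a corepressor of the same genes, fell by 1.48, while the repressors of ribosome biogenesis genes DOT6 and TOD6 moved apart, by -1.45 and 1.27.

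Of 71 mitochondrial ribosomal protein genes tested, 27 fell (38%) and 0 rose, against 24.3% and 13.3% of all genes, and their median was -0.21 relative to all genes. MRP20, a protein of the large mitochondrial subunit, read 119, 74.9 and 103 at steady state and 29.0 and 33.9 at 330 s (log2 -1.63 ± 0.27 (SE), limma adjusted p = 0.00027). MRPL28, RSM24 and RSM28 fell by 1.13, 0.94 and 0.88 on the log2 scale. This share of fallers rested on the scale and on 330 s replicate 2: it was 12.7% with median centring (9 genes, against 16.1% of all genes), 18.3% with quantile normalization (13, against 17.7%) and 15.5% without 330 s replicate 2 (11, against 16.3%). Without 330 s replicate 1 it was 21.1% (15, against 15.5%).

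The machinery between transfer RNA and protein rose in part. Of 42 genes of transfer RNA modification 16 rose and 1 fell, and of 39 genes listed with translation factors 11 rose and 3 fell. The latter list also names GCD10 and GCD14, subunits of a transfer RNA methyltransferase, which were among its risers. Of 19 cytosolic aminoacyl-tRNA synthetases 6 rose and 0 fell. Among all genes 13.3% rose and 24.3% fell. PUS1, a pseudouridine synthase, read 169, 125 and 135 at steady state and 409.7 and 486 at 330 s (log2 1.65 ± 0.24 (SE), limma adjusted p = 8.9e-05). PUS2, its mitochondrial counterpart, was the single faller of that list and lay at the floor on both 330 s arrays. TRM11 and NCL1, methyltransferases of transfer RNA, rose by 1.42 and 1.24. MES1, the methionyl-tRNA synthetase, rose by 0.69, and GCN2, the kinase that senses uncharged transfer RNA, fell by 0.91 (limma adjusted p = 0.0042, and 0.084 without 330 s replicate 2). Without 330 s replicate 2, the risers numbered 8 for modification, 5 for translation factors and 2 for synthetases, and without 330 s replicate 1 those of the translation factors numbered 5. With the series block the risers numbered 9, 7 and 2, and over all 17 alternatives they ran from 8 to 18, 5 to 16 and 2 to 10. Under that block 9.06% of all genes rose, so the synthetases, at 10.5%, lay near the background.

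**Figure D3:**
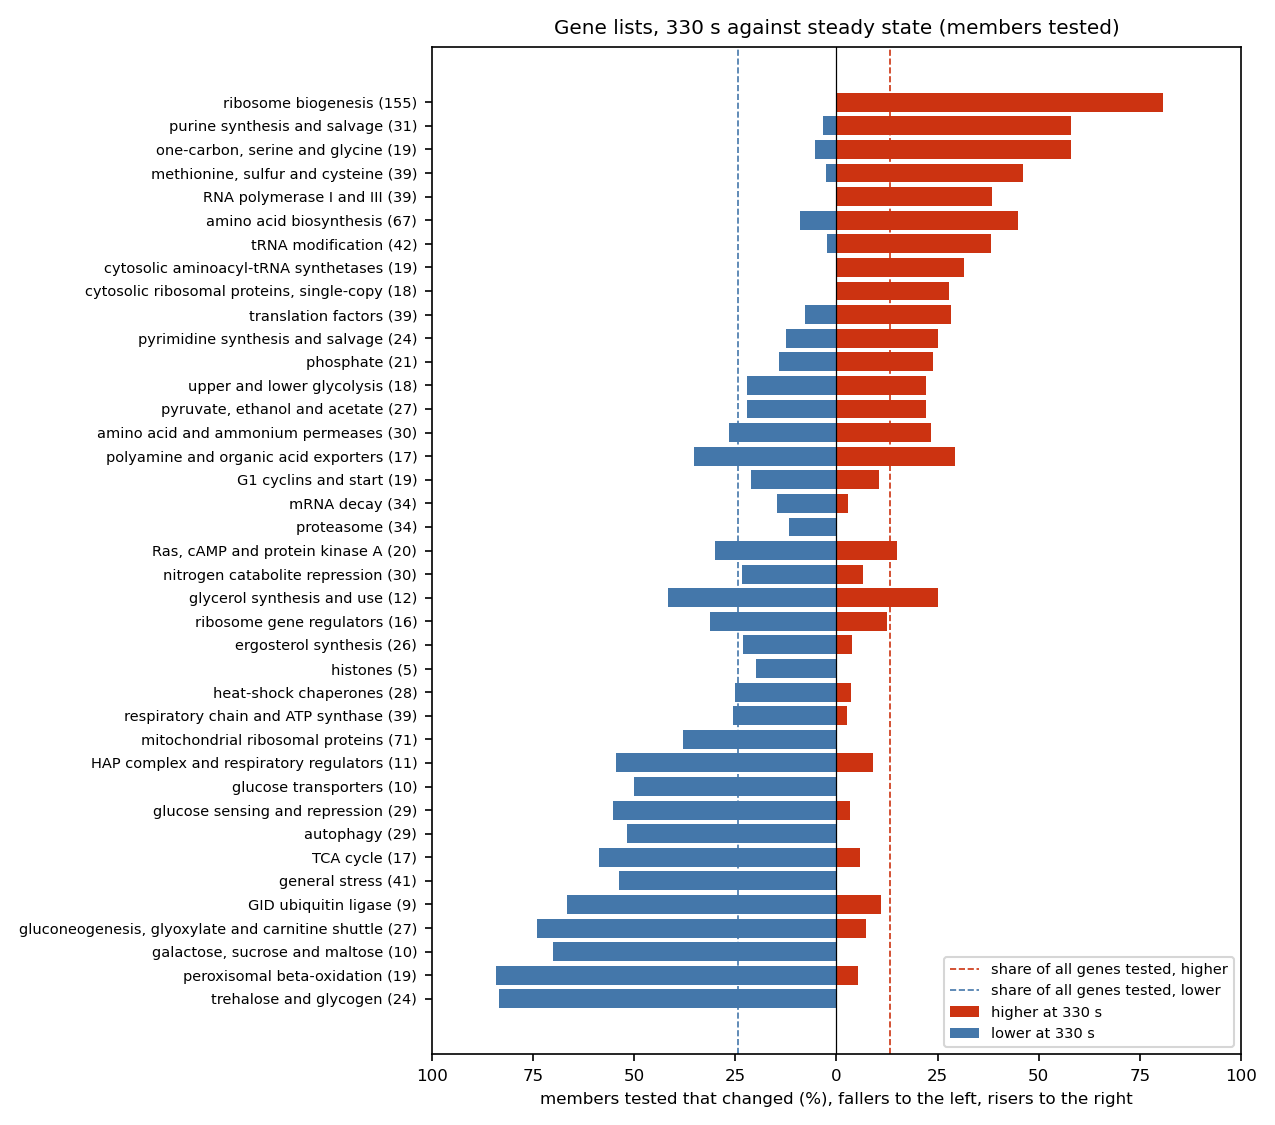
Share of the tested members of each of 39 gene lists that passed the test at 330 s against steady state, risers to the right and fallers to the left, with the number tested in brackets. Dashed lines mark the shares of all 5410 genes (13.3% higher and 24.3% lower); ribosome biogenesis lies at the top with 125 of 155 risers and trehalose and glycogen at the bottom with 20 of 24 fallers.

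Lists of purine, one-carbon, sulfur and amino acid synthesis each had a larger share of risers than the 13.3% of all genes. Of 31 purine genes 18 rose and 1 fell, with a median 0.84 over that of all genes. IMD4, an IMP dehydrogenase at the branch to guanine nucleotides, read 84.3, 129 and 95.5 at steady state and 462 and 501 at 330 s (log2 2.25 ± 0.20 (SE), limma adjusted p = 9e-07). GUA1, the GMP synthase that follows it, read 438, 469.5 and 517 at steady state and 1469 and 1648 at 330 s (log2 1.72 ± 0.13 (SE), limma adjusted p = 2e-07). ADE1, of the main purine pathway, read 407, 183 and 396 at steady state and 1345 and 1146 at 330 s, and BAS1, the activator of that pathway, rose by 1.17 on the log2 scale. The 330 s signals of IMD4, GUA1 and ADE1 were at least 2-fold over the highest steady-state signal. The single purine faller was GUD1, the guanine deaminase (-0.78), which lost its call with the series block (-0.60, limma adjusted p = 0.086). The one-carbon list had 11 risers and 1 faller among 19 genes, with a median of 0.83. MTD1, a cytosolic enzyme of folate one-carbon units, read 257, 296 and 242 at steady state and 1164 and 1114 at 330 s (log2 2.11 ± 0.14 (SE), limma adjusted p = 2.7e-08). SHM2, the cytosolic serine hydroxymethyltransferase, rose by 1.70, and SER3, the first enzyme of serine synthesis, by 1.92.

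In methionine and sulfur metabolism 18 of 39 genes rose and 1 fell, with a relative median of 0.69. MUP3, a methionine permease, read 81.6, 87.2 and 86.5 at steady state and 379 and 389.9 at 330 s (log2 2.18 ± 0.15 (SE), limma adjusted p = 5.1e-08). SAM1, an S-adenosylmethionine synthetase, rose by 1.38, the regulator genes MET31 and MET32 by 1.32 and 1.11, and MET3, the ATP sulfurylase of sulfate assimilation, by 0.72, and MET32 lost its call with the series block (0.73, limma adjusted p = 0.086). Amino acid synthesis had 30 risers and 6 fallers among 67 genes, with a relative median of 0.54. ASN1, an asparagine synthetase, read 263, 363 and 135 at steady state and 832 and 633 at 330 s (log2 1.63 ± 0.29 (SE), limma adjusted p = 0.00049). LYS20, a homocitrate synthase of lysine synthesis, rose by 1.36 and GLN1, the glutamine synthetase, by 1.31. ARO9, which breaks down aromatic amino acids, fell by 1.47 and was among the 6 fallers, with TRP4, LYS5 and LEU3. Pyrimidine genes were mixed, with 6 risers and 3 fallers of 24: URA7, a CTP synthetase, rose by 1.63 and its paralogue URA8 fell by 0.94.

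Transporters of nitrogen compounds and organic molecules split. Of 30 amino acid and ammonium permeases 7 rose (23.3%, against 13.3% of all genes) and 8 fell (26.7%, against 24.3%). The fallers numbered 5 with quantile normalization and with the series block (16.7%, against 17.7% and 16.2% of all genes), so they stayed near the background. PUT4, the proline permease, read 1319, 1243 and 1611 at steady state and 231 and 306 at 330 s (log2 -2.38 ± 0.20 (SE), limma adjusted p = 3.7e-07). AGP3, a low-affinity permease, fell by 1.70, and the ammonium permease gene MEP3 rose by 1.82, with steady-state signals of 41.7, 15.3 and 20.5. MEP3 lost its call with the series block (log2 0.99, limma adjusted p = 0.061). Among 17 genes listed with polyamine and drug exporters, 5 rose, TPO2 and AQR1 the most, and 6 fell. The list also names the regulators WAR1 and HAA1. TPO4, another polyamine exporter, read 202, 177 and 209.5 at steady state and 47.6 and 49.9 at 330 s (log2 -2.01 ± 0.15 (SE), limma adjusted p = 9.4e-08), opposite to TPO2. QDR2, a drug and potassium transporter, fell by 1.41. Nitrogen catabolite repression genes gave 2 risers and 7 fallers of 30, the fallers close to the background of 24.3%, and CAR1, the arginase, read 177, 168 and 172 at steady state and 51.9 and 73.7 at 330 s. Their risers numbered 4 without steady-state replicate 3, 5 with median centring, 4 with quantile normalization and 0 to 5 over all 17 alternatives. Phosphate genes had 5 risers (3 without either 330 s array and with the series block) and 3 fallers of 21, led by the phosphatase gene PHM8 with 17.9, 22.8 and 17.4 at steady state and 85.7 and 93.9 at 330 s.

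Genes of reserve carbohydrates fell broadly. Among the 24 genes for trehalose and glycogen, 20 fell and 0 rose, against 24.3% and 13.3% of all genes. Their median was -1.16 relative to all genes. GAC1, which directs the Glc7 phosphatase to glycogen synthase, read 126, 146 and 181 at steady state and 12 and 22.8 at 330 s, with 1 of the 330 s arrays at the floor (log2 -3.17 ± 0.30 (SE), limma adjusted p = 1.6e-06). GLC3, the glycogen branching enzyme, read 445, 402 and 316 at steady state and 52.5 and 63.2 at 330 s (log2 -2.74 ± 0.17 (SE), limma adjusted p = 2.4e-08). TSL1, a subunit of the trehalose synthase complex, read 303, 288 and 305 at steady state and 62.6 and 53.6 at 330 s (log2 -2.36 ± 0.17 (SE), limma adjusted p = 6.5e-08). Genes of synthesis and of breakdown were both among the fallers: the glycogen synthases GSY1 and GSY2 by 1.44 and 1.39, the trehalases ATH1 and NTH2 by 2.12 and 2.04 and the debranching enzyme GDB1 by 1.33. The neutral trehalase gene NTH1 (0.40), PGM1 (-0.04), the glycogen phosphorylase gene GPH1 (-0.47) and TPS3 (-0.62) did not pass. GPH1 and TPS3 passed without steady-state replicate 3 (-0.66 and -0.83), TPS3 also without 330 s replicate 1 (-0.95), and NTH1 without steady-state replicate 2 (0.50). With the series block GPH1 (-0.83) and TPS3 (-1.14) passed, as did NTH1 with median centring (0.56) and quantile normalization (0.50).

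**Figure D4:**
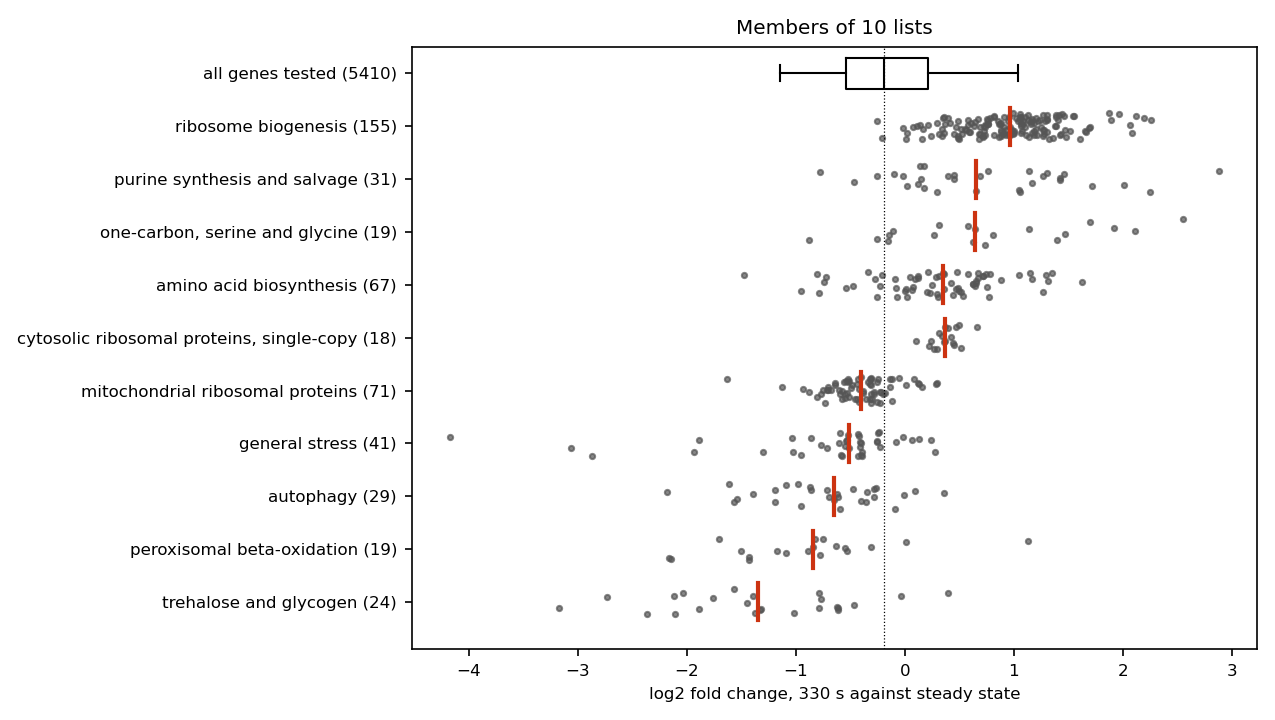
Log2 fold changes at 330 s against steady state of the tested members of 10 lists (grey points, 1 per gene; red bars, medians; vertical scatter has no meaning) below a box of all 5410 genes (quartiles, whiskers at the 5th and 95th percentiles, outer genes not drawn; dotted line, median of -0.19). Ribosome biogenesis lies to the right, single-copy ribosomal proteins span 0.10 to 0.67, and trehalose and glycogen lie to the left.

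General stress genes fell in 22 of 41 cases (53.7%, against 24.3% of all genes) and rose in 0. The falls were led by TMA10, RTC3 and USV1. USV1, a zinc finger regulator, read 224, 185 and 194 at steady state and 30.3 and 24.8 at 330 s. The fallers numbered 13 with median centring (31.7%, against 16.1% of all genes) and were also fewer without 330 s replicate 1. HSP12, a stress-induced membrane protein gene often used as a marker of low protein kinase A activity, read 4567, 3044 and 4454 at steady state and 3615 and 4738 at 330 s, with overlapping groups and a log2 value of 0.06 ± 0.20 (SE) (limma adjusted p = 0.82). Heat-shock chaperone genes had 1 riser and 7 fallers of 28, the latter near the background, and the fallers numbered 2 with median centring and 1 without 330 s replicate 1. Autophagy genes fell in 15 of 29 cases (51.7%, against 24.3% of all genes) and rose in 0. ATG7, the activating enzyme of the ubiquitin-like conjugation, read 93.0, 81 and 74.6 at steady state and 22.5 and 32.1 at 330 s (log2 -1.62 ± 0.22 (SE), limma adjusted p = 4.1e-05), and ATG1, the starting kinase, fell by 1.54. Of 34 proteasome genes 4 fell and 0 rose, a smaller share of fallers than the 24.3% of all genes. Their median was 0.02 relative to all genes, with a sign that changed between settings. Among the fallers was RPN4, their transcriptional activator (-0.98). The fallers numbered 7 under quantile normalization, 1 after centring on medians and 2 if steady-state replicate 1 was dropped.

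Gluconeogenesis and the use of poorer carbon sources fell. Of 27 genes of gluconeogenesis, the glyoxylate cycle and the carnitine shuttle 20 fell (74.1%) and 2 rose (7.41%). Among all genes 24.3% fell and 13.3% rose. The relative median of this list was -0.60. FBP1, the fructose bisphosphatase of gluconeogenesis, read 278, 275 and 371 at steady state and 110.0 and 147 at 330 s (log2 -1.26 ± 0.21 (SE), limma adjusted p = 0.0003). PCK1, the other enzyme particular to gluconeogenesis, read 294, 193 and 194 at steady state and 204 and 215 at 330 s, with overlapping groups (log2 -0.09 ± 0.17 (SE), limma adjusted p = 0.7, and -0.49 with an adjusted p of 0.044 with the series block). ICL1, the isocitrate lyase of the glyoxylate cycle, read 1279.6, 925 and 1029 at steady state and 829 and 768 at 330 s and passed narrowly (log2 -0.42 ± 0.16 (SE), limma adjusted p = 0.044), and its adjusted p was 0.3 when arrays were centred on medians, 0.14 and 0.056 without steady-state replicates 1 and 3, and 0.1 and 0.2 without 330 s replicates 1 and 2. The activator genes ADR1 and CAT8 fell by 1.25 and 1.15, and CRC1, the mitochondrial carnitine carrier, by 2.08. Of 9 GID ubiquitin ligase genes 6 fell (66.7%), with VID28 and GID7 at -1.45 and -1.39, and 1, VID24, rose. Peroxisomal beta-oxidation fell in 16 of 19 genes (84.2%). POX1, the acyl-CoA oxidase of its first step, read 370.0, 319.8 and 335 at steady state and 81.7 and 72.9 at 330 s (log2 -2.14 ± 0.15 (SE), limma adjusted p = 5.1e-08). Of 10 galactose, sucrose and maltose genes 7 fell (70%) and 0 rose. Among these fallers was SUC2, the invertase, with 652, 785 and 782 at steady state and 170.4 and 165 at 330 s. The probe sets of SUC2 and MAL31 may match related family members.

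Genes of respiratory regulation and of the TCA cycle fell for most members, and those of the respiratory chain near the background share. In the list of the HAP complex and respiratory regulators 6 of 11 genes fell (54.5%, against 24.3% of all genes). ROX1, a repressor of hypoxic genes, was the 1 riser (1.93). Of the DNA-binding subunits of the complex, HAP3 fell by 0.88 and HAP2 (-0.42) did not pass. Of 17 TCA cycle genes 10 fell (6 without 330 s replicate 2 and 6 with median centring) and 1 rose. MDH1, the mitochondrial malate dehydrogenase, read 1715, 1372 and 1737 at steady state and 654 and 858 at 330 s (log2 -1.09 ± 0.15 (SE), limma adjusted p = 5.2e-05). The riser was CIT2, the peroxisomal citrate synthase, with 695, 684 and 613 at steady state and 1185 and 1208 at 330 s. Of 39 genes of the respiratory chain and ATP synthase 10 fell and 1 rose, and the median was 0.00 relative to all genes, with a sign that changed between settings. STF2, which stabilizes the inhibitor of ATP synthase, read 1658, 1386 and 1386 at steady state and 484 and 424 at 330 s, and NDI1, the internal NADH dehydrogenase, fell by 1.28.

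Glucose uptake, sensing and fermentation genes were mixed. Of 10 glucose transporter genes tested 5 fell (50%, against 24.3% of all genes) and 0 rose. HXT2, a transporter of high affinity, read 2303, 1741 and 2508 at steady state and 761 and 678 at 330 s (log2 -1.59 ± 0.16 (SE), limma adjusted p = 2.4e-06). HXT1, the low-affinity transporter known to be induced by high glucose, read 23.2, 31.0 and 33.0 at steady state and 15.8 and 33.1 at 330 s with overlapping groups (log2 -0.33 ± 0.25 (SE), limma adjusted p = 0.31), and fell only without 330 s replicate 2 (log2 -0.86, limma adjusted p = 0.013). HXT7, whose probe set may also match near-identical transporters, read 3525, 2364 and 3090.3 at steady state and 2518 and 2329 at 330 s and did not pass (limma adjusted p = 0.25, and 0.0031 with quantile normalization). The transporter fallers numbered 1 with the series block (10%, against 16.2% of all genes) and 3 without any 1 steady-state array. With the day as a random block they numbered 2 (20%, against 20.8%). In the glucose sensing and repression list 16 of 29 genes fell and 1 rose, and with the series block 9 fell (31%, against 16.2% of all genes). MTH1, the corepressor of HXT genes that glucose sensors destroy, read 205, 186 and 202 at steady state and 15.6 and 19.4 at 330 s (log2 -3.51 ± 0.19 (SE), limma adjusted p = 4.3e-09). MIG1, the main glucose repressor, read 107, 85.8 and 93.6 at steady state and 25.4 and 29.3 at 330 s (log2 -1.80 ± 0.22 (SE), limma adjusted p = 1.7e-05). HXK2, the main hexokinase in glucose-rich cells, read 925, 992 and 1037 at steady state and 234 and 365 at 330 s and HXK1 2186, 1739 and 1910.1 at steady state and 459 and 476 at 330 s, so both hexokinases fell, by 1.75 and 2.05.

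In glycolysis 4 of 18 genes rose and 4 fell (2 in a fit of the compared arrays alone), the fallers near the 24.3% of all genes. The risers were PFK27, 1 of the 2 kinases that make the activator fructose 2,6-bisphosphate, with 17.6, 26.5 and 15.2 at steady state and 47.8 and 60.5 at 330 s, and CDC19, TDH1 and GPM1 at 0.60, 0.57 and 0.42 on the log2 scale. GPM1 lost its call without steady-state replicate 1 or 2 and without 330 s replicate 1 or 2 (limma adjusted p of 0.093, 0.13, 0.099 and 0.23), with quantile normalization (0.25) and with the series block (0.14). PFK26, the other such kinase, read 329, 231 and 221 at steady state and 90.2 and 145 at 330 s and FBP26, the matching phosphatase, 166, 137 and 163 at steady state and 80.7 and 60.8 at 330 s, both lower. Around pyruvate 6 of 27 genes rose and 6 fell, the fallers again near the share of all genes. The pyruvate decarboxylase genes PDC1 and PDC6 rose by 0.68 and 1.02. ALD5, a mitochondrial aldehyde dehydrogenase, read 238, 167 and 139 at steady state and 682 and 799.7 at 330 s, and ALD6, the cytosolic one, 1410.2, 1027 and 1371 at steady state and 524 and 465 at 330 s, in opposite directions. Among the subunits of the pyruvate carrier MPC2 rose by 0.74 while MPC1 and MPC3 fell by 1.13 and 3.45. In glycerol metabolism the phosphatase genes GPP1 and GPP2 and the dehydrogenase gene GPD2 rose by 1.58, 2.41 and 1.31, and STL1, the glycerol importer, read 524, 534 and 623 at steady state and 117 and 98.9 at 330 s; 5 of 12 members fell in all, 3 without steady-state replicate 1 and 2 without either 330 s array.

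Signalling and cell-cycle lists held genes changed in both directions. Of 20 genes listed for Ras and cAMP signalling 3 rose (15%, against 13.3% of all genes) and 6 fell (30%, against 24.3%). Beside PDE2, the risers were RAS1 (0.87) and RGS2 (0.76), which lost their calls without 330 s replicate 2 (0.78 and 0.53) and with the series block (limma adjusted p of 0.053 and 0.068), and among the fallers were BCY1 (-0.79), the inhibitory subunit of protein kinase A, and TPK2 (-0.93), a catalytic one. Of 19 genes of G1 cyclins and start 2 rose (4 without steady-state replicate 1) and 4 fell (2 with a floor of 24). These main shares, 10.5% and 21.1%, lay under the 13.3% and 24.3% of all genes. CLN3, the G1 cyclin that couples growth to division, read 70.4, 137 and 116 at steady state and 108 and 181 at 330 s, with overlapping groups (log2 0.43 ± 0.29 (SE), limma adjusted p = 0.26); it passed with the array series as a block (0.99, adjusted p = 0.043). CLN1 read 183, 157 and 148 at steady state and 98.0 and 85.9 at 330 s (log2 -0.82 ± 0.17 (SE), limma adjusted p = 0.0015). Histone genes had 1 faller of 5 tested, messenger RNA decay genes 1 riser and 5 fallers of 34 (3 fallers without steady-state replicate 3 and 1 with the series block), and ergosterol genes 1 and 6 of 26 (3 fallers with the series block). The fallers made up 20%, 14.7% and 23.1% of these lists and the risers 0%, 2.94% and 3.85%, all under the shares of all genes. Regulators of ribosome genes had 2 risers and 5 fallers of 16, a share of fallers somewhat over the 24.3% of all genes. Their fallers numbered 2 with median centring or quantile normalization, and were also fewer without either 330 s array.

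The step from 300 s to 330 s was tested directly. The difference itself used no steady-state array, but its spread was estimated from all 15 arrays of the fit, steady state included. A fit of the 5 arrays of these times alone called 1 gene. In limma, 35 genes were higher at 330 s (0.647% of 5410) and 83 lower (1.53%) at an adjusted p under 0.05, and for all 118 the arrays of the 2 times did not overlap, as for 1886 of all 5410 genes (34.9%). This count rested on few arrays: it was 1 without 330 s replicate 1, 19 without 330 s replicate 2, 21 without 300 s replicate 3, 65 without 300 s replicate 1, whose note names benzoic acid, and 78 with median centring. With the array series as a block 0 genes passed limma's test, 413 had an unadjusted p under 0.05 against 1063 in the main result, and the 330 s and 300 s arrays share neither a series nor a day. That block takes the difference between series from the steady-state arrays alone, as no other time point has arrays of both series.

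The largest rises after 300 s were in short open reading frames and VPR1. YLR264C-A read 219.7, 114 and 72.9 at steady state, 116, 125 and 113 at 300 s and 447 and 432 at 330 s (330 s against 300 s: log2 1.90 ± 0.31 (SE), limma adjusted p = 0.0092), and its value against the steady state was 1.84, or 1.00 with the series block. YDR034C-A read 99.7, 29.1 and 40.8, 34.3, 32.0 and 41.3 and 215 and 497 in the same order, and steady-state replicate 1, of the same array series as the 330 s arrays, was the highest of its 3 steady-state values, as it was for YLR264C-A, YGR240C-A and VPR1. VPR1 read 254, 145 and 156, 94.9, 86.2 and 77.9 and 238 and 275, so that the 330 s arrays differed from 300 s but overlapped with the steady state. The largest fall was that of ATG15, the vacuolar lipase that breaks down autophagic bodies. ATG15 read 71.9, 77.6 and 154 at steady state, 72.8, 84.1 and 175 at 300 s and 24.2 and 18.1 at 330 s (log2 -2.29 ± 0.34 (SE), limma adjusted p = 0.0069). PMA2, a minor isoform of the plasma membrane proton pump, read 522, 794 and 859, 745, 780.4 and 981 and 268 and 357 in that order (log2 -1.42 ± 0.19 (SE), limma adjusted p = 0.0032). SWT21 read 12, 18.6 and 17.6, 35.7, 31.1 and 39.9 and 12.6 and 16.3, higher at 300 s than at both other times, and the transfer RNA gene YNCJ0006W 174, 341 and 326, 267, 441 and 379 and 111 and 175. The probe set of YNCJ0006W may match other transcripts, so its signal cannot be assigned to this gene alone.

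**Figure D5:**
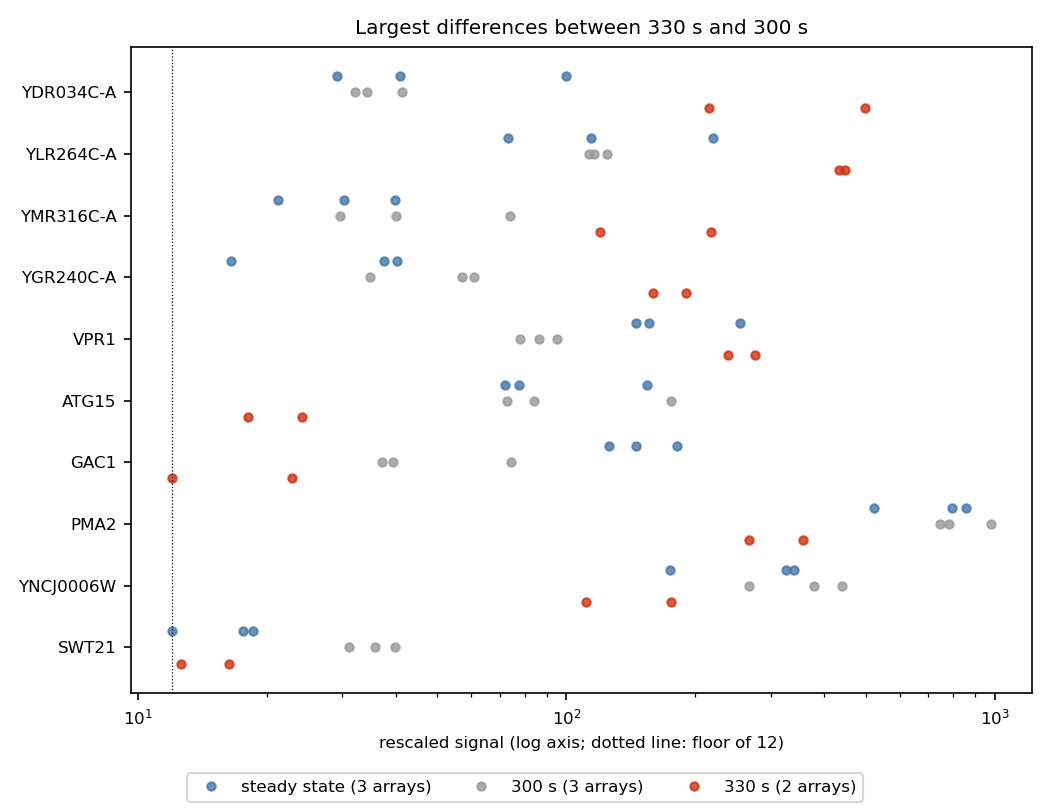
Rescaled signal (log axis) of the 5 genes with the largest rise and the 5 with the largest fall between 300 s and 330 s, 1 point per array (blue, 3 at steady state; grey, 3 at 300 s; red, 2 at 330 s; dotted line, floor of 12). By the rule that chose the genes, the red points of each lie on one side of all its grey points. The red points of VPR1, SWT21 and YNCJ0006W overlap the blue ones.

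Several genes that were already lower at 300 s stood lower again at 330 s; both values below are against the same 3 steady-state arrays. MTH1 had a log2 value of -2.53 at 300 s and -3.51 at 330 s, and the direct difference was -0.98 ± 0.19 (SE) (limma adjusted p = 0.018). For GAC1 these values were -1.65 and -3.17, with a difference of -1.52 ± 0.30 (SE) (limma adjusted p = 0.02). For HXK2 they were -0.72 and -1.75, and for SUC2 -1.27 and -2.14, with direct differences of -1.03 ± 0.16 (SE) and -0.87 ± 0.13 (SE) (limma adjusted p = 0.0069 and 0.0064). In the direct test, where 1.53% of all genes were lower at 330 s, the lower members numbered 4 of 29 for glucose sensing, 4 of 24 for trehalose and glycogen, 4 of 39 for the respiratory chain, 3 of 29 for autophagy and 3 of 30 for nitrogen catabolite repression, and all of these calls were lost with the series block. In the respiratory chain these were NDI1, RIP1, ATP3 and ATP16, while ATP14 was higher. Of the 155 ribosome biogenesis genes only RLP7 was higher (log2 0.55, limma adjusted p = 0.038) and 0 were lower. TPO2 (4.55 and 5.32), AQR1 (4.57 and 4.71) and HAP4 (-2.97 and -3.03) did not pass the direct test, with limma adjusted p of 0.11, 0.75 and 0.9.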

How the data were processed

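Per the submitters' processing notes the authors used GCOS, the Affymetrix array software, whose version and settings were not stated in the labels or files. The deposited values are linear intensity values, 1 for each of 9335 probe sets on each of 16 arrays. Control probe sets number 60. The platform annotation gives 6504 probe sets a single gene, 328 several genes and 2443 no gene. RefSeq's R64 gene table held all 6504 and served for names and overlaps.

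Intensities were multiplied so that each array had a 2%-trimmed mean of 150, values under 12 were set to 12, and log2 was taken. Each of 5656 genes was read from the probe set whose mean log2 signal was highest, and 246 genes that exceeded the floor on 0 or 1 array were dropped. Of the changed genes 94 had a further probe set above the floor, which moved in the opposite direction for 13, none of them named by rule. A single limma model (version 3.58.1, R 4.3.3, with lmFit, contrasts.fit and trended eBayes) took in 15 arrays, that is, all but the one at 210 s, with a mean per time point, 9 residual and 6.3 prior degrees of freedom. P-values were two-sided and Benjamini-Hochberg adjusted over 5410 genes in each comparison. The procedure was tested on simulated signals.

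The members, the 39 gene lists and the rule for named genes were chosen with earlier results of these data known. The rule took the 15 largest rises and falls at 330 s and the 5 largest between 300 s and 330 s among changed genes with non-overlapping groups, up to 4 changed members per list, and 12 genes whatever their test. Genes named beyond it were chosen after their values were seen. Alternatives covered the scaling, floor, filter, probe sets, variance model, arrays in the fit, blocks, thresholds and each array left out. Precision is limited by how few arrays each time point has. Promoter sequences were not analysed here.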

Additional observations from a re-analysis of the deposited data

Results flagged for a closer look

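The effects at 330 s and 300 s, each against the same steady-state arrays, differed for 30 of the 180 genes named by rule. The test was the direct limma test of 330 s against 300 s (adjusted p under 0.05), which 118 of all 5410 genes passed. The rule had taken the largest rises and falls among genes passing this same test, so those calls were fixed in advance. The share of 30 in 180 therefore cannot be compared with that of all genes. All values here are log2 differences of 330 s minus 300 s, and all 30 calls were lost with the array series as a block.

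The higher genes were YDR034C-A 3.20, YLR264C-A 1.90, YMR316C-A 1.87, YGR240C-A 1.81, VPR1 1.57, ALD5 0.73 and SER2 0.68. Lower at 330 s were the autophagy genes ATG15 -2.29 and ATG1 -0.79 and the genes of reserve carbohydrates GAC1 -1.52, GLC3 -0.70 and TSL1 -0.68. Lower too were the genes of glucose sensing and sugar use MTH1 -0.98, HXK1 -0.82, HXK2 -1.03, SUC2 -0.87 and MAL33 -0.73 and those of respiration, fatty acids and carnitine NDI1 -0.75, RIP1 -0.73, POX1 -0.64 and CRC1 -0.97. The other lower genes were PMA2 -1.42, YNCJ0006W -1.35, SWT21 -1.30, YMR206W -0.71, YGR067C -0.996, PUT4 -0.84, HHO1 -0.83, CCR4 -0.88 and STL1 -0.77.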

How the results depend on the processing

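At 330 s against the steady state, 2034 genes passed, and 1811 to 2313 did under either other scaling, a floor of 3 or 24, either filter, the mean of probe sets, no variance trend or a replicate block; the random day block gave 1772 and the array series block 1368. The 5 compared arrays alone gave 1300, an adjusted p under 0.01 gave 1283 and a change of at least 2-fold 689. Leaving out 1 array gave 1338 to 1979. From 300 s to 330 s, 118 genes passed, and 86 to 160 did with quantile normalization, either floor, either filter, the mean of probe sets, no variance trend or a replicate block. Median centring gave 78, the random day block 34, the array series block 0 (413 at an unadjusted p under 0.05 in limma), the compared arrays alone 1, an adjusted p under 0.01 gave 12 and at least 2-fold 32, and leaving out 1 array 1 to 113. The replicate block (pulse number) gave 2313 and 160 and changed neither count by over 1.5 times. Deviations of same-numbered arrays had r of 0.20 and -0.07 for steady state and 330 s and of 0.34 and 0.05 for 300 s and 330 s. For steady state and 300 s they had r of 0.04 to 0.42. The 2 arrays at 330 s deviate as mirror images, so these values cannot decide whether the numbers pair the arrays. The labels do not say so, and the numbers were not taken to pair them. Day could not be a fixed block, as the 330 s arrays share a day of their own.

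Of 180 genes named by rule, 129 kept direction and side of the threshold under all 17 alternatives, as did 20 of 29 others. No gene that had passed reversed. The reversals were SWT21 at 0.26 (series block) and 0.18 (quantile), HXT1 at 0.0027 (quantile), PCK1 at 0.073 (median centring), HSP12 at -0.14 (series block) and -0.21 (quantile), and PGM1 at 0.13 (median centring and quantile), with 1 array left out -0.34 to 0.047 for SWT21, -0.86 to 0.20 for HXT1, -0.19 to 0.11 for PCK1, -0.13 to 0.26 for HSP12 and -0.40 to 0.33 for PGM1, all log2. The relative medians of 10 of 39 lists changed sign under some alternative, all close to 0 at the start except glycolysis (0.27, and -0.03 with quantile normalization) and phosphate (0.21, and 0.00 without 330 s replicate 1). With probe sets averaged, YDR034C-A stood at 0.85, MRK1 at -1.94, ALD6 at -0.67 and SUC2 at -1.30, and a floor of 24 ended the calls of GCN2 (-0.23) and PUS2 (-0.34). The causes were not tested. Signals at the floor bound the falls that could be measured.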

Other observations

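The single 210 s array came from 1 culture and entered no test. Its signals lay between the 120 s and 300 s means for each of the 9 genes plotted by time. For TPO2 it read 190.5, against means of 32.6 at 120 s and 777.0 at 300 s, and for AQR1 51.7, against 12 and 306. For ISF1 it read 171.7, against means of 509 at 120 s and 33.4 at 300 s, and for MTH1 104, against 227 and 34.8.

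Of the 2034 genes changed at 330 s, 579 were in the gene lists described above and 1455 in none of them. The changed genes included 145 of the 451 tested genes that have a systematic name alone, 49 higher and 96 lower.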
